A study of Homo sapiens with 11 samples.

Results

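The 10 genes of the RNA interference machinery described here are the Argonautes AGO1 to AGO4, DICER1 and its partners TARBP2 and PRKRA, the Microprocessor genes DROSHA and DGCR8, and TNRC6A. They were taken by name: the Ensembl identifiers of the count tables were matched to symbols in GENCODE release 29, and 10 of 58735 listed genes are members. All 10 passed the filter on low counts in every comparison. The data are poly(A) RNA sequencing counts from PANC-1 and AsPC-1, established human pancreatic cancer cell lines, in 11 libraries. The groups were PANC-1 with MYEOV siRNA (n = 3), PANC-1 control (n = 3), AsPC-1 with MYEOV siRNA (n = 3) and AsPC-1 control (n = 2). RNA of siRNA libraries was taken 48 hours after transfection with Stealth RNAi duplexes and a lipid reagent. The study asks what changes when MYEOV, a gene named for its overexpression in myeloma, is lowered; its design text speaks of a knockout, whereas the protocol describes siRNA.

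The control libraries are labelled as wild type and as expressed RNA with no treatment, while a negative-control siRNA stands in the protocol as well. If the controls were untreated, MYEOV siRNA and transfection itself cannot be told apart. The protocol names 2 duplexes against MYEOV, and the labels do not say which library received which. Separate cultures are named nowhere in the labels: the p-values measure only how far these libraries spread, which may be technical. In bulk RNA, fewer cells of a kind and less RNA per cell cannot be told apart.

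In the microRNA pathway, DROSHA, an RNase III enzyme, and DGCR8, its RNA-binding partner, cut primary transcripts in the nucleus. DICER1, a second RNase III enzyme, cuts the exported hairpins, or long double-stranded RNA, with the help of the double-stranded RNA binding proteins TARBP2 (TRBP) and PRKRA (PACT). One strand is loaded onto an Argonaute, which pairs with targets through the seed of the small RNA; AGO2 is the Argonaute best known for slicing a fully matched target, as an siRNA does. TNRC6A (GW182) bridges Argonautes to the deadenylases that shorten the poly(A) tail of targets.

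Libraries held 12113093 to 15066456 counts on genes, and single members held from 131 to 2594 counts in a library. MYEOV, the targeted gene, stood at 37.8 ± 2.0 CPM in PANC-1 siRNA libraries and 69.3 ± 5.4 CPM in PANC-1 controls (mean ± SD, n = 3 each; CPM are counts scaled to library size, here with TMM factors over all 11 libraries). In AsPC-1 it stood at 47.3 ± 4.0 CPM in siRNA libraries and 130 ± 0.91 CPM in controls (n = 3 and 2). Every siRNA library lay below every control of its line. All 5 epithelial markers (KRT8, KRT18, KRT19, EPCAM and CDH1) had counts in both lines. In PANC-1 their sum was 1930 to 1963 CPM in siRNA libraries and 2264 to 2532 CPM in controls, and the markers did not move together. KRT8 (912 to 938 CPM with siRNA, 1171 to 1320 CPM in controls) and KRT18 were lower with siRNA without overlap, and KRT19 overlapped. EPCAM (6.91 to 7.93 CPM with siRNA, 4.82 to 6.51 CPM in controls) and CDH1 (9.91 to 12.2 CPM with siRNA, 7.50 to 8.97 CPM in controls) were higher without overlap. In AsPC-1 the sum was 18452 to 18963 CPM in siRNA libraries and 18077 to 18271 CPM in controls. There KRT18, EPCAM and CDH1 were higher with siRNA without overlap, KRT8 overlapped, and KRT19 was lower, at 3212 to 3250 CPM with siRNA and 3562 to 3575 CPM in controls. Of the mesenchymal markers, VIM stood at 2026 to 2097 CPM in PANC-1 siRNA libraries and 1969 to 2042 CPM in controls, which overlapped. VIM stood at 897 to 953 CPM in AsPC-1 siRNA libraries and 807 to 841 CPM in controls, without overlap. ZEB1 overlapped in both lines, and CDH2 was at 0 in AsPC-1 and below 5 CPM in PANC-1. The sum of 4 fibroblast markers was 41.2 to 42.8 CPM in PANC-1 siRNA libraries and 29.6 to 36.4 CPM in controls, nearly all of it COL1A1, with DCN at 0. In AsPC-1 that sum was 105 to 108 CPM in siRNA libraries and 296 to 310 CPM in controls, nearly all of it LUM, with COL1A2 and DCN below 1 CPM. The leukocyte marker CD3E was at 0 throughout, LYZ stood at 27.2 to 30.2 CPM in AsPC-1, and the summed endothelial markers stayed below 1 CPM. The part of these marker changes in the results was not tested.

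In both lines AGO1, AGO2, TARBP2 and PRKRA fell with MYEOV siRNA. The call of AGO2 in PANC-1 was marginal and held in 4 of 13 alternative fits. AGO1 fell to 71.3% of control in PANC-1 and 52.6% in AsPC-1, and PRKRA to 79.2% and 55.4%. DICER1 rose 1.58-fold and TNRC6A 1.15-fold in AsPC-1, and neither passed the test in PANC-1. AGO3, AGO4, DROSHA and DGCR8 passed the test in neither line. At an adjusted p under 0.05 the edgeR quasi-likelihood test thus called 4 of 10 members lower and 0 higher in PANC-1, where 9.08% of the 14929 tested genes were called, 4.92% lower and 4.16% higher. In AsPC-1 it called 4 lower and 2 higher, where 32.9% of 14304 tested genes were called, 16.3% lower and 16.6% higher. The share of members lower was thus above the background in both lines, while 2 of 10 higher in AsPC-1 is close to it. The members were chosen with earlier results of these data known, so that share is a description and no support of its own. At an unadjusted p under 0.05 DICER1 and TNRC6A were higher in PANC-1 and 4 members lower. Of the 14929 genes tested there, 3509 passed that threshold in either direction. DESeq2 called 1 member higher and 3 lower in PANC-1, and 1149 of all genes, 551 higher and 598 lower.

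The count of 4 lower members in PANC-1 was 2 with control library 1, control library 3, siRNA library 1 or siRNA library 3 left out. Over all genes, these fits called 944, 918, 538 and 863, against 1356 with every library. AGO1 was called in each of these fits.

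**Figure D1:**
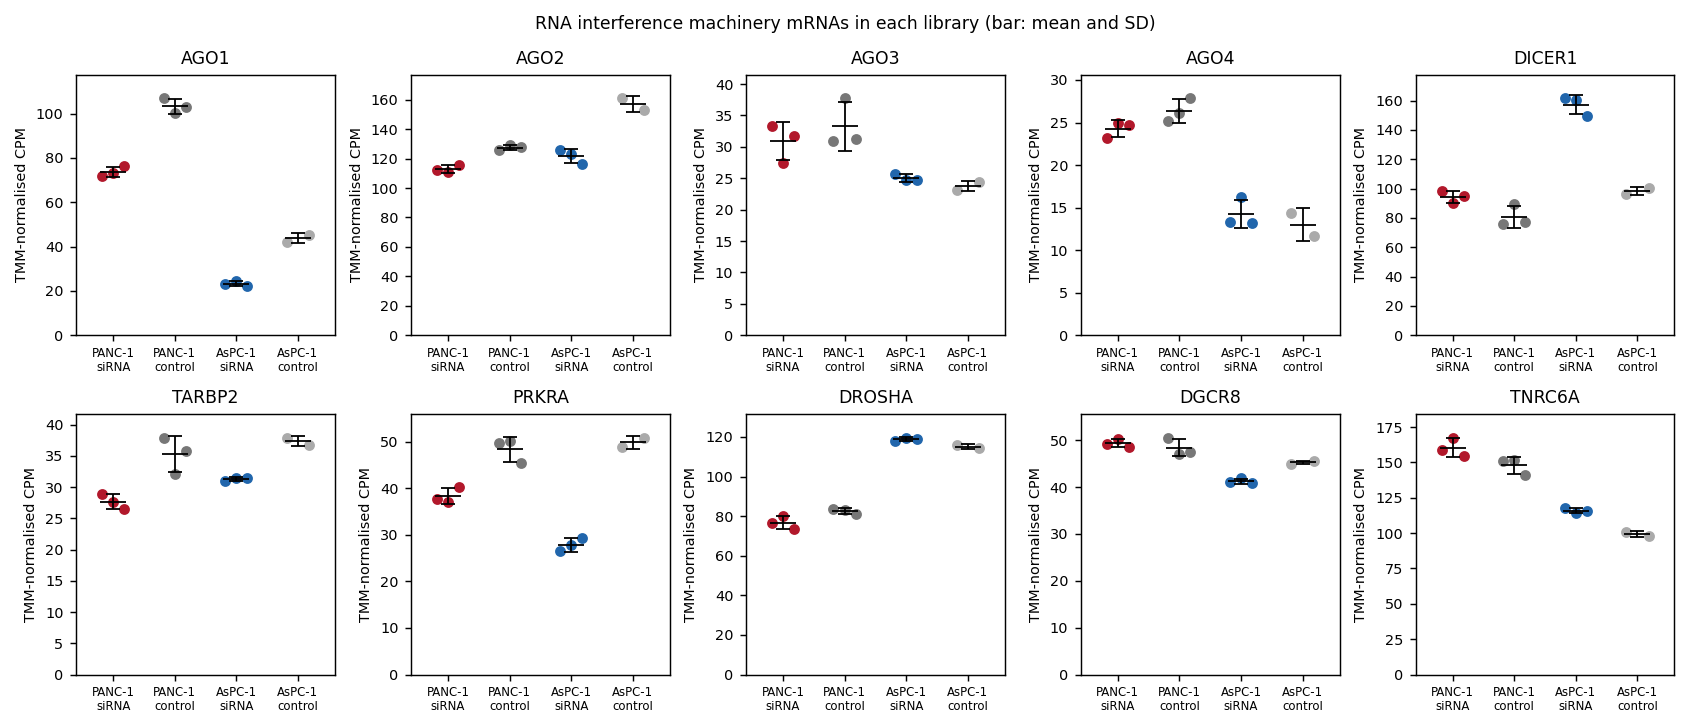
TMM-normalised CPM of each of the 10 genes in each library, by group, with PANC-1 siRNA, PANC-1 control, AsPC-1 siRNA and AsPC-1 control from left to right; points are libraries and bars the mean and SD. AGO1 and PRKRA lie lower in siRNA than in control libraries of each line, and DICER1 stands at 149.5 to 162 CPM in AsPC-1 siRNA libraries against 96.2 and 100.4 CPM in the controls.

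**Figure D2:**
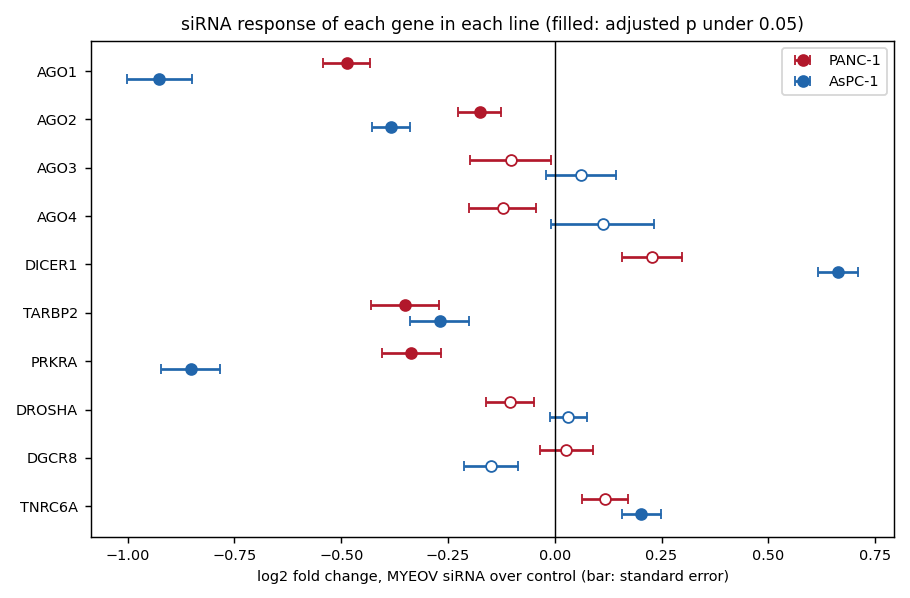
Log2 fold change of MYEOV siRNA over control with its standard error for each gene in PANC-1 and AsPC-1; filled points passed an adjusted p of 0.05. AGO1, AGO2, TARBP2 and PRKRA lie left of 0 in both lines, DICER1 and TNRC6A right of it.

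Word matches in the 3' UTR of the members are shown because a 7-base word, CTCATGT, was common in the 3' UTRs of genes that fell. An earlier search of these libraries had pointed to that word, so its presence here is a description and no support of its own. In PANC-1, 45.6% of the 688 genes called lower with an annotated 3' UTR carried the word, against 9.87% of 598 called higher and 12.9% of all 12516 tested. In AsPC-1 the shares were 26.2% of 2121 lower, 8.84% of 2274 higher and 12.9% of 11945 tested. These sets differ in length. The median 3' UTR in PANC-1 had 1837.5 bases in genes called lower, 1912 in those called higher and 1382 in all tested. In AsPC-1 the medians were 1571, 1538.5 and 1360 bases. Only the sense strand of the longest annotated 3' UTR was searched. The matches below are 23-base windows of GENCODE 29 transcripts with CTCATGT in capitals, and for PRKRA, which holds no full word, a 22-base window with its core TCATGT in capitals; each capital CTCATGT also contains the core.
AGO1 position 204: atatcaacCTCATGTcccccacc
AGO1 position 301: acaggtgtCTCATGTgactcaca
AGO1 position 2800: agctttggCTCATGTggatttgg
AGO4 position 748: taaaagtaCTCATGTttccccta
AGO4 position 3949: gttgtatcCTCATGTtgagataa
AGO3 position 14510: ttatttcaCTCATGTctttgcag
DICER1 position 3591: aagagaaaCTCATGTcatgttta
TARBP2 position 261: cctctgggCTCATGTatctgcgc
PRKRA position 485: atttgaatTCATGTaacaaaga

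Positions are counted from 1 at the first base after the stop codon. On GRCh38 the AGO1 windows are chr1:35919803-35919825, chr1:35919900-35919922 and chr1:35922399-35922421 on the plus strand. Those of AGO4 are chr1:35854345-35854367 and chr1:35857546-35857568, and that of AGO3 is chr1:36070247-36070269, all on the plus strand. The DICER1 window is chr14:95086893-95086915 on the minus strand, the TARBP2 window chr12:53506199-53506221 on the plus strand and the PRKRA window chr2:178431599-178431620 on the minus strand. Each window has 8 bases on either side of the capitals.

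UTR length differs widely between members and bears on these matches. The longest annotated 3' UTR had 10921 bases in AGO1, 11888 in AGO2, 16755 in AGO3, 4285 in AGO4 and 4270 in DICER1, against a median of 1382 over genes tested in PANC-1. Among tested genes with a 3' UTR of 80% to 125% of the AGO1 length, 63.1% of 176 carried CTCATGT, so a match in a UTR of that length is common. For TARBP2, whose 3' UTR had 450 bases, the share was 2.38% of 1219 genes of similar length. For PRKRA, with 683 bases, 18.4% of 1448 genes of similar length carried the core TCATGT. DROSHA and DGCR8 held neither word. TNRC6A, which rose in AsPC-1, held the core 2 times and the full word 0 times, and its windows are not shown. Of 1973 genes of similar length to TNRC6A, 55.2% carried the core. Windows with the core alone are shown for PRKRA only, which fell, so the windows are not an even survey of the members. AGO2 holds the full word 2 times, and these matches are not shown. Of 125 genes of similar length to AGO2, 68.8% carried it. AGO3, AGO4 and DICER1 hold the full word and were not called lower in either line. For these 3 the share among genes of similar length was 66.7% of 39, 24.6% of 1355 and 24.7% of 1367. A match is a description and shows no binding.

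Among the Argonautes, AGO1 changed most. It had 72.1, 73.05 and 76.4 CPM in PANC-1 siRNA libraries, against 107, 100.4 and 103 CPM in PANC-1 controls. AsPC-1 siRNA libraries had 22.9, 24.7 and 22.2 CPM, against 42.3 and 45.5 CPM in controls. The groups did not overlap in either line. The log2 fold change was -0.49 in PANC-1 (SE 0.06; edgeR adjusted p = 9.03e-05) and -0.93 in AsPC-1 (SE 0.08; edgeR adjusted p = 4.64e-10).

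The response of AGO1 differed between lines. The difference in its log2 fold change, PANC-1 minus AsPC-1, was 0.42 (SE 0.09; edgeR interaction test, adjusted p = 0.00871), so the fall was deeper in AsPC-1. With AsPC-1 control library 2 left out, which leaves 1 AsPC-1 control, the difference was 0.37 and missed the threshold. It also missed it with the replicate number as a block (0.40, edgeR adjusted p = 0.0915). That interaction test called 3 of the 10 members, with a positive difference for AGO1 and PRKRA and a negative difference for DICER1. It called 4.36% of 16680 genes, 2.07% with a positive and 2.28% with a negative difference. AGO1 (ENSG00000092847) lies at chromosome 1, 35869808 to 35930528, plus strand, on GRCh38.

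AGO2, the slicing Argonaute, fell by less. It had 112, 111 and 116 CPM in PANC-1 siRNA libraries, against 126, 129 and 128 CPM in controls. AsPC-1 siRNA libraries had 126, 123 and 116 CPM, against 161 and 153 CPM in controls. Both lines showed groups that did not overlap. The log2 fold change was -0.38 in AsPC-1 (SE 0.04; edgeR adjusted p = 1.55e-07) and -0.18 in PANC-1 (SE 0.05; edgeR adjusted p = 0.0441).

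The PANC-1 call of AGO2 held in 4 of 13 alternative fits, in which its log2 fold change stayed between -0.19 and -0.16 and its adjusted p between 0.0155 and 0.181. Among the fits with 1 library left out, the edgeR adjusted p of AGO2 was 0.0655 for control library 1, 0.125 for control library 3, and 0.181, 0.156 and 0.0863 for siRNA libraries 1, 2 and 3, all past the threshold no longer. The difference in AGO2 response between lines did not pass the interaction test (0.19, SE 0.07; edgeR adjusted p = 0.14), and did with PANC-1 control library 2 left out (edgeR adjusted p = 0.0433).

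AGO3 and AGO4, further Argonautes that load microRNAs, did not pass the test in either line. AGO3 had 33.4, 27.5 and 31.8 CPM in PANC-1 siRNA libraries, against 30.9, 37.7 and 31.2 CPM in controls, and these groups overlapped. In AsPC-1 AGO3 had 25.7, 24.7 and 24.7 CPM in siRNA libraries, against 23.1 and 24.4 CPM in controls. AGO4 had 23.1, 25.0 and 24.7 CPM in PANC-1 siRNA libraries, against 25.2, 26.1 and 27.85 CPM in controls. All AGO4 values with siRNA lay below all controls in PANC-1, but the log2 fold change of -0.12 had an SE of 0.08 (edgeR adjusted p = 0.38). In AsPC-1 AGO4 had 13.3, 16.2 and 13.2 CPM in siRNA libraries, against 14.3 and 11.6 CPM in controls, which overlapped. With 131 to 197 counts per AsPC-1 library, AGO4 was the least sampled member.

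AGO4, AGO1 and AGO3 are neighbours in that order on chromosome 1, all on the plus strand. The gap between AGO4 and AGO1 is 11917 bases, and that between AGO1 and AGO3 is 189 bases. Within this cluster AGO1 fell in both lines, while the log2 fold changes of its neighbours were -0.12 (AGO4) and -0.10 (AGO3) in PANC-1 and 0.11 and 0.06 in AsPC-1. None of these 4 values passed the test. AGO2 lies apart, on chromosome 8.

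Counted per kilobase of merged exons, so that genes can be compared, the make-up of Argonaute mRNA shifted. AGO1 made up 30.4%, 31.0% and 31.1% of the summed AGO1 to AGO4 level in PANC-1 siRNA libraries, against 37.5%, 34.8% and 35.6% in PANC-1 controls. In AsPC-1 AGO1 made up 13.1%, 13.7% and 13.4% in siRNA libraries, against 18.7% and 20.9% in controls. The share of AGO2 was 41.3 ± 0.26% in PANC-1 siRNA libraries and 38.9 ± 0.34% in controls (SD, n = 3 each). In AsPC-1 the AGO2 share was 61.5 ± 1.4% in siRNA libraries and 62.0 ± 0.58% in controls (n = 3 and 2). The summed level itself was 17.2 ± 0.40 CPM per kilobase in PANC-1 siRNA libraries and 20.7 ± 0.12 in controls, and 12.5 ± 0.51 in AsPC-1 siRNA libraries and 15.99 ± 0.41 in controls. These shares and sums are given as descriptions, with no test.

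**Figure D3:**
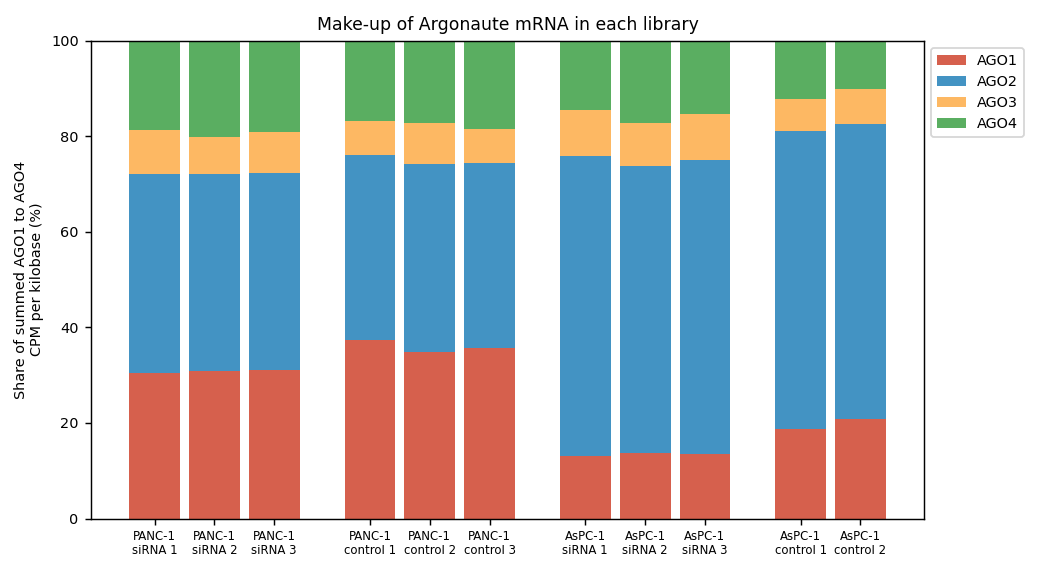
Share of each Argonaute in the summed CPM per kilobase of AGO1 to AGO4, in percent, in each library, with siRNA libraries left of the controls of their line. AGO1 takes 30.4% to 31.1% in PANC-1 siRNA libraries against 34.8% to 37.5% in PANC-1 controls, and 13.1% to 13.7% in AsPC-1 siRNA libraries against 18.7% and 20.9% in AsPC-1 controls.

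In AsPC-1 DICER1 rose while its partners TARBP2 and PRKRA fell; in PANC-1 both partners fell and DICER1 did not pass the test. DICER1 had 98.1, 90.2 and 94.8 CPM in PANC-1 siRNA libraries, against 75.6, 89.4 and 77.05 CPM in PANC-1 controls. AsPC-1 siRNA libraries had 162, 160 and 149.5 CPM, against 96.2 and 100.4 CPM in controls. Every siRNA library lay above every control of its line, by a narrow margin in PANC-1, where control replicate 2 was the highest control. The log2 fold change of DICER1 was 0.66 in AsPC-1 (SE 0.05; edgeR adjusted p = 3.71e-11) and 0.23 in PANC-1 (SE 0.07; edgeR adjusted p = 0.0574).

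In PANC-1 DICER1 passed the threshold in 5 of 13 alternative fits, over which its adjusted p ran from 0.00242 to 0.242. With PANC-1 control library 2 left out, its log2 fold change was 0.31 (edgeR adjusted p = 0.00242). The rise was larger in AsPC-1: the difference, PANC-1 minus AsPC-1, was -0.45 (SE 0.09; edgeR interaction test, adjusted p = 0.00541). With AsPC-1 control library 1 left out, which leaves 1 AsPC-1 control, that difference was -0.42 and missed the threshold. It also missed it with the replicate number as a block (-0.48, edgeR adjusted p = 0.0529).

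PRKRA, also known as an activator of the kinase PKR, had 37.6, 37.0 and 40.3 CPM in PANC-1 siRNA libraries, against 49.6, 50.15 and 45.3 CPM in controls. In AsPC-1 PRKRA had 26.4, 27.7 and 29.4 CPM in siRNA libraries, against 48.8 and 50.9 CPM in controls. The groups did not overlap in either line, and the controls of the 2 lines overlapped. The log2 fold change was -0.34 in PANC-1 (SE 0.07; edgeR adjusted p = 0.00794) and -0.85 in AsPC-1 (SE 0.07; edgeR adjusted p = 5.47e-10). The PANC-1 call did not hold with siRNA library 1 left out (edgeR adjusted p = 0.0583) or with the replicate number as a block (edgeR adjusted p = 0.0505). The difference between lines, PANC-1 minus AsPC-1, was 0.50 (SE 0.10; edgeR interaction test, adjusted p = 0.00526), and it passed in all 17 alternative fits, with an adjusted p from 7.28e-04 to 0.0493.

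TARBP2, the other Dicer partner, had 28.9, 27.6 and 26.45 CPM in PANC-1 siRNA libraries, against 37.9, 32.2 and 35.8 CPM in controls. AsPC-1 siRNA libraries had 31.0, 31.5 and 31.5 CPM, against 37.95 and 36.8 CPM in controls. No siRNA library reached the lowest control in either line. TARBP2 had a log2 fold change of -0.35 in PANC-1 (SE 0.08; edgeR adjusted p = 0.0145) and -0.27 in AsPC-1 (SE 0.07; edgeR adjusted p = 0.00361). For TARBP2 the interaction test did not call the lines different (-0.10, SE 0.11; edgeR adjusted p = 0.731). TARBP2 missed the threshold in PANC-1 with control library 1, control library 3 or siRNA library 3 left out (edgeR adjusted p of 0.0617, 0.0536 and 0.0603). In AsPC-1 it missed the threshold with control library 1 left out, which leaves 1 control (log2 fold change -0.25).

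Per kilobase of merged exons, the order of levels within the complex also differed. PRKRA stood at 7.06 ± 0.37 CPM per kilobase and DICER1 at 12.8 ± 0.54 in AsPC-1 siRNA libraries, whereas PRKRA stood at 12.6 ± 0.37 and DICER1 at 7.996 ± 0.24 in AsPC-1 controls (n = 3 and 2). In PANC-1 PRKRA stayed above DICER1 in both groups, at 9.72 ± 0.45 against 7.68 ± 0.32 CPM per kilobase in siRNA libraries and 12.3 ± 0.68 against 6.56 ± 0.61 in controls. With the longest transcript in place of merged exons, PRKRA and DICER1 were nearly level in AsPC-1 siRNA libraries, at 15.04 and 15.2 CPM per kilobase, and PRKRA was above DICER1 in AsPC-1 controls, at 26.9 and 9.52. The change of each gene between groups does not depend on its length.

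The Microprocessor pair did not pass the test in either line. DROSHA had 76.6, 80.04 and 73.7 CPM in PANC-1 siRNA libraries, against 83.8, 82.9 and 81.0 CPM in controls. AsPC-1 siRNA libraries had 118, 119.7 and 119 CPM, against 116 and 114 CPM in controls. Each line's groups lay close together without overlap. The log2 fold change was -0.10 in PANC-1 (SE 0.06; edgeR adjusted p = 0.286) and 0.03 in AsPC-1 (SE 0.04; edgeR adjusted p = 0.629).

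DGCR8, whose mRNA is itself cut by DROSHA, had 49.25, 50.2 and 48.6 CPM in PANC-1 siRNA libraries, against 50.6, 47.1 and 47.6 CPM in controls. In AsPC-1 DGCR8 had 41.0, 41.85 and 40.9 CPM in siRNA libraries, against 45.0 and 45.5 CPM in controls. The groups overlapped in PANC-1 and did not in AsPC-1. In AsPC-1 the log2 fold change was -0.15 (SE 0.06; edgeR adjusted p = 0.0729), and in none of 12 alternative fits did it pass, with an adjusted p from 0.0536 to 0.27. DGCR8 shares 538 exon bases with genes on the opposite strand, TRMT2A among them, and no source used here gives the strand setting of the counting, so such reads may not be told apart. Smaller antisense overlaps were found for AGO1, AGO3, DICER1, TARBP2 and PRKRA, of 16 to 396 bases. On the same strand, 1 gene shared exon bases with AGO2 and 2 with DGCR8, and strand cannot tell such reads apart.

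TNRC6A, the GW182 scaffold, had 159, 168 and 155 CPM in PANC-1 siRNA libraries, against 151, 152 and 141 CPM in controls. AsPC-1 siRNA libraries had 118, 114 and 115 CPM, against 101 and 97.9 CPM in controls. The siRNA libraries lay above the controls in both lines. TNRC6A had a log2 fold change of 0.20 in AsPC-1 (SE 0.04; edgeR adjusted p = 8.90e-04) and 0.12 in PANC-1 (SE 0.05; edgeR adjusted p = 0.203), and the interaction test did not call the lines different (-0.10, SE 0.07; edgeR adjusted p = 0.546). Its paralogues TNRC6B and TNRC6C were not called in either line, with log2 fold changes of -0.04 and -0.23 in PANC-1 and -0.02 and 0.15 in AsPC-1.

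Control libraries were then set against each other, PANC-1 over AsPC-1. Here 7 of 10 members were called, 4 higher and 3 lower in PANC-1, where 76.4% of 16182 tested genes were called, 40.3% higher and 36.1% lower. The count of members is near that background and says nothing particular about them. AGO1 differed most, with 103 ± 3.3 CPM in PANC-1 controls and 43.9 ± 2.2 CPM in AsPC-1 controls (n = 3 and 2), a log2 fold change of 1.22 with an SE of 0.07 and an edgeR adjusted p of 6.53e-10. AGO4, its neighbour, had 26.4 ± 1.4 CPM in PANC-1 and 12.97 ± 1.9 CPM in AsPC-1 controls, a log2 fold change of 0.99 with an SE of 0.11 and an edgeR adjusted p of 1.30e-06. AGO3, the third gene of the cluster, was also higher in PANC-1, by 0.46 on the log2 scale with an SE of 0.11 and an edgeR adjusted p of 0.00114.

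TNRC6A was 1.46-fold higher in PANC-1 controls, at 148 ± 6.2 CPM against 99.4 ± 2.1 CPM in AsPC-1 controls. DROSHA was lower in PANC-1, with 82.6 ± 1.4 CPM there and 115 ± 1.1 CPM in AsPC-1, a log2 fold change of -0.50 with an SE of 0.06 and an edgeR adjusted p of 3.20e-06. AGO2 and DICER1 were lower too, at 79.8% and 80.7% of the AsPC-1 control level (edgeR adjusted p = 1.60e-04 and 0.00243). TARBP2, PRKRA and DGCR8 were not called between the lines, with log2 fold changes of -0.10, -0.07 and 0.07. That of PRKRA was 0.02 with upper-quartile scaling.

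Levels of different genes were ordered per kilobase of merged exons. In PANC-1 controls PRKRA (12.3 CPM per kilobase) and TNRC6A (11.4) came first and overlapped, followed by DROSHA (10.6), TARBP2 (8.63) and AGO2 (8.05), the last pair overlapping. Then came AGO1 (7.45), DGCR8 (6.62) and DICER1 (6.56), the last pair overlapping, and AGO4 (3.63) and AGO3 (1.57). In AsPC-1 controls the order was DROSHA (14.8 CPM per kilobase), PRKRA (12.6), AGO2 (9.92), TARBP2 (9.13), DICER1 (7.996), TNRC6A (7.69), DGCR8 (6.19), AGO1 (3.16), AGO4 (1.79) and AGO3 (1.12), with no overlap between the ranges of neighbours in these 2 libraries. The order depends on the length used. Per kilobase of the longest transcript, AsPC-1 controls gave PRKRA (26.9), DROSHA (21.7), TARBP2 (20.0), TNRC6A (11.8), AGO2 (10.8), DGCR8 (9.64) and DICER1 (9.52), with AGO1, AGO4 and AGO3 last as before. In PANC-1 controls TARBP2 (18.9) then came second after PRKRA (26.1), and AGO1 (7.54) came eighth, below DICER1 (7.81). In AsPC-1 siRNA libraries AGO1 (1.68 ± 0.09 CPM per kilobase) lay below AGO4 (1.96 ± 0.23), without overlap.

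**Figure D4:**
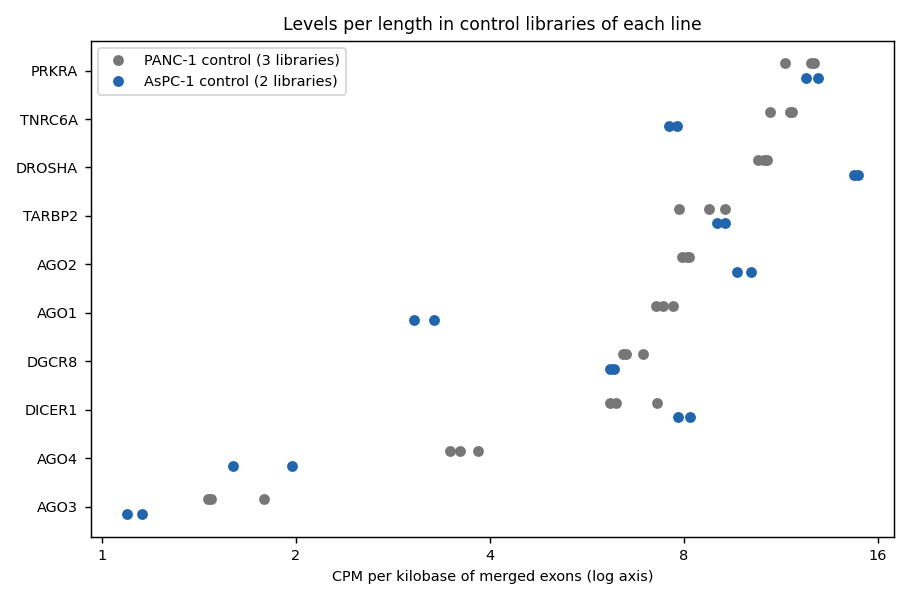
CPM per kilobase of merged exons (log axis) of each gene in the 3 PANC-1 and 2 AsPC-1 control libraries; each point is a library. AGO1, AGO3, AGO4 and TNRC6A lie higher in PANC-1 and AGO2, DICER1 and DROSHA higher in AsPC-1.

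Over the 11 libraries, the genes whose log2 CPM followed AGO1 most closely, among 9683 others with a mean of at least 3, were DVL3 (Pearson's r = 0.996), GCNT2 (0.993) and NLK (0.993). For DICER1 they were TMEM87B (0.987), ITPKB (0.984) and FAM217B (0.983). These are descriptions over libraries that share cell lines and treatments.

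The wider silencing pathway was described with 74 genes in 7 lists. In PANC-1, 6 of 72 tested genes were called higher and 8 lower, and in AsPC-1, 16 of 70 higher and 15 lower. The 14 PANC-1 calls were 3, with 0 higher and 3 lower, when siRNA library 1 was left out. They were 9 when siRNA library 2 was left out. Calls over all genes fell in the same fits, from 1356 to 538 and 876. The PANC-1 counts of the lists thus rest in part on those libraries, as do those of all genes. Of all tested genes, 9.08% were called in PANC-1, 4.92% lower and 4.16% higher. In AsPC-1 32.9% were called, 16.3% lower and 16.6% higher. The lists were chosen with earlier results of these data known, so their shares are descriptions and no support of their own. The median log2 fold change of the tested genes of the lists was -0.01 in PANC-1 and 0.03 in AsPC-1, against 0.00 over all tested genes in each line. Among 9 nuclear processing and export genes, 1 rose and 2 fell in PANC-1, and 1 rose and 4 fell in AsPC-1. HNRNPA1, an RNA-binding protein that binds some primary microRNAs, fell to 64.0% of control in PANC-1 (edgeR adjusted p = 8.17e-07) and 58.2% in AsPC-1 (edgeR adjusted p = 3.20e-15). NCBP1, a subunit of the cap-binding complex, fell to 80.8% and 71.3%, and missed the PANC-1 threshold with siRNA library 1 left out (edgeR adjusted p = 0.0616). XPO5, which exports hairpins to the cytoplasm, was not called, with log2 fold changes of -0.02 in PANC-1 and 0.08 in AsPC-1.

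Among the 7 genes of Argonaute loading, edgeR called 0 in PANC-1, where 1 was higher and 1 lower at an unadjusted p under 0.05 and DESeq2 called 0. In AsPC-1, 2 rose and 0 fell, with 0 lower by DESeq2 or at an unadjusted p under 0.05 in edgeR. These were the HSP90 cochaperone PTGES3 (1.28-fold) and the chaperone HSPA8 (1.14-fold). Both responses differed between lines, by -0.27 and -0.29 on the log2 scale (PANC-1 minus AsPC-1; edgeR interaction adjusted p = 0.00700 and 0.0177). With AsPC-1 control library 1 left out, which leaves 1 AsPC-1 control, the PTGES3 difference was -0.25 and missed the threshold. That of HSPA8 missed it with AsPC-1 control library 1 or 2 left out, at -0.31 and -0.26. The HSPA8 difference also missed it with AsPC-1 siRNA library 3 left out (-0.27, edgeR adjusted p = 0.0584).

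Of 16 GW182 and deadenylase genes, 0 rose and 3 fell in PANC-1, where 1 was higher at an unadjusted p under 0.05 and DESeq2 called 0 higher; in AsPC-1, 3 rose and 3 fell. PAN3, a subunit of the PAN2-PAN3 deadenylase, fell to 68.1% of control in PANC-1 (edgeR adjusted p = 0.0105) and 77.0% in AsPC-1 (edgeR adjusted p = 6.00e-05). CNOT6, a catalytic subunit of the CCR4-NOT deadenylase, fell to 68.8% (edgeR adjusted p = 4.87e-04) and 77.6% (edgeR adjusted p = 2.66e-06). For neither was the difference between lines called.

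Of 12 decapping and 5' decay genes, 1 rose and 1 fell in PANC-1, and 3 rose and 4 fell in AsPC-1. LSM14A, a P-body protein, rose 1.19-fold in PANC-1 (edgeR adjusted p = 0.00788) and 1.35-fold in AsPC-1 (edgeR adjusted p = 6.47e-08), and missed the PANC-1 threshold with siRNA library 1 left out (edgeR adjusted p = 0.0535). The decapping enzyme gene DCP2 rose 1.42-fold in AsPC-1. XRN1, the 5' to 3' exonuclease, fell to 82.8% of control in PANC-1, a call that did not hold with control library 2 or 3 left out (edgeR adjusted p of 0.0546 and 0.0903) or with siRNA library 1 or 2 left out (0.142 and 0.135). XRN1 also fell in AsPC-1, to 80.9% of control (edgeR adjusted p = 0.00286). It missed the threshold there with control library 2 left out, which leaves 1 control (log2 fold change -0.21).

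Among 12 Argonaute cofactor genes, 3 of 11 tested rose and 1 fell in PANC-1, and 5 of 10 tested rose and 0 fell in AsPC-1, where 0 were lower at an unadjusted p under 0.05 and DESeq2 called 0 lower. FXR1, an RNA-binding protein of the fragile X family, rose 1.17-fold in PANC-1 and 1.30-fold in AsPC-1. ZSWIM8, the adaptor of target-directed microRNA decay, rose 1.17-fold in PANC-1 and 1.21-fold in AsPC-1. The interaction test called the lines different for neither. In PANC-1 FXR1 missed the threshold with siRNA library 1 left out (edgeR adjusted p = 0.0522), and ZSWIM8 with control library 3 or siRNA library 1, 2 or 3 left out (edgeR adjusted p of 0.0999, 0.0985, 0.125 and 0.0880). LIMD1, a P-body scaffold, rose to 120.5% of control in PANC-1, a call that did not hold with siRNA library 1 left out (edgeR adjusted p = 0.0701). AJUBA, of the same LIM protein family, fell to 81.5% of control in PANC-1, a call that did not hold with control library 1 or siRNA library 1 left out (edgeR adjusted p of 0.0577 and 0.103). In AsPC-1 AJUBA was among the genes that rose (log2 fold change 0.22), a value named after it was seen. With control library 1 left out there, which leaves 1 control, AJUBA stood at 0.20 and missed the threshold. Its response differed between lines (-0.53, PANC-1 minus AsPC-1; edgeR interaction adjusted p = 0.00217).

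Of 8 genes of microRNA tailing and decay, 0 of 7 tested rose and 1 fell in PANC-1, where 0 were higher at an unadjusted p under 0.05 and DESeq2 called 0 higher; of the 6 tested in AsPC-1, 1 was higher and 3 were lower. The gene that fell in PANC-1 was LIN28B, the blocker of let-7 processing, at 11.3 ± 0.85 CPM in siRNA libraries and 15.8 ± 2.4 CPM in controls, a log2 fold change of -0.48 with an SE of 0.12 and an edgeR adjusted p of 0.0207. That call did not hold with siRNA library 1 or 2 left out (edgeR adjusted p of 0.0677 and 0.0744). LIN28B had 0 counts in all 5 AsPC-1 libraries. In AsPC-1 the uridylyltransferase gene TUT4 rose 1.26-fold, and the deadenylase gene PARN fell to 80.1% of control. The TUT4 call did not hold with control library 1 left out, which leaves 1 control (log2 fold change 0.25).

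Of 10 double-stranded RNA binding genes, 1 rose and 0 fell in PANC-1, where 2 were lower at an unadjusted p under 0.05 and DESeq2 called 0 lower; in AsPC-1, 1 rose and 1 fell. DDX58, which encodes the RNA sensor RIG-I, rose by 0.32 on the log2 scale in PANC-1 (edgeR adjusted p = 0.0156), a call that did not hold with siRNA library 1 or 3 left out (edgeR adjusted p of 0.0791 and 0.0772). In AsPC-1 STAU2 fell to 77.2% of control and STAU1 rose 1.08-fold. With control library 1 left out, which leaves 1 control, STAU2 and STAU1 missed the threshold, at log2 fold changes of -0.27 and 0.12. STAU1 also missed it with control library 2 left out (log2 fold change 0.09) or siRNA library 2 left out (edgeR adjusted p = 0.0564). EIF2AK2, the kinase PKR that PRKRA activates, was not called in either line, with log2 fold changes of -0.01 in PANC-1 and -0.08 in AsPC-1.

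**Figure D5:**
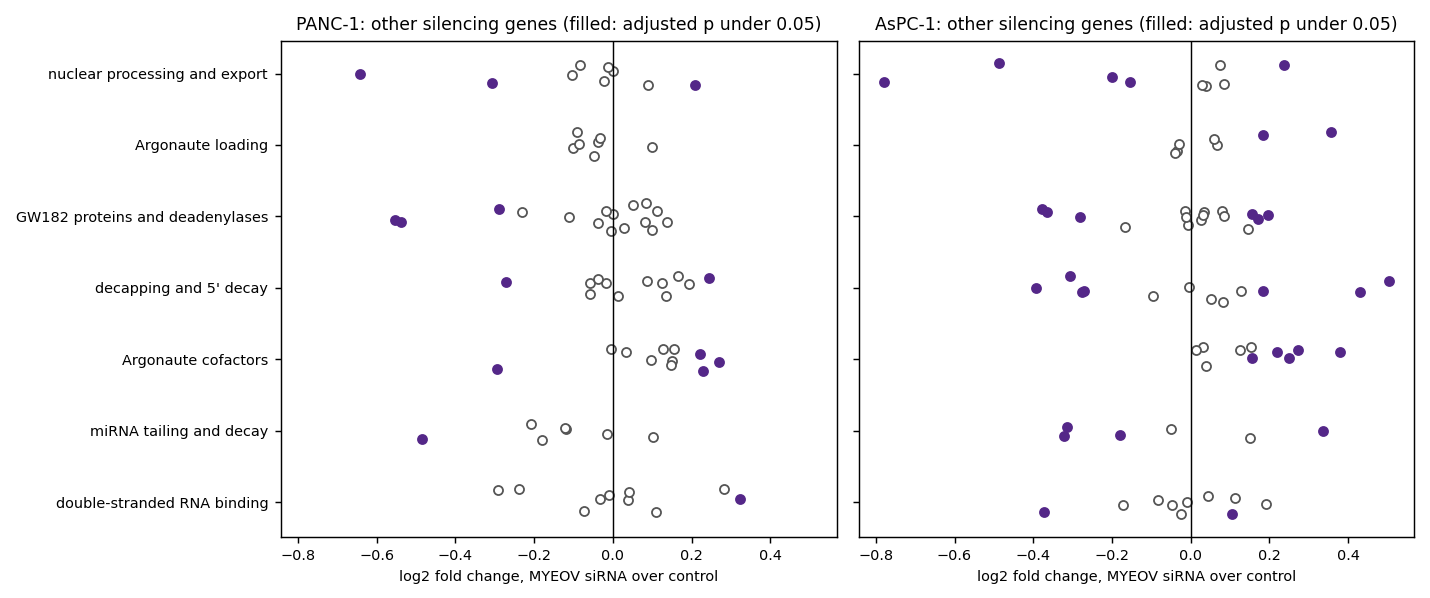
Log2 fold change of MYEOV siRNA over control for tested genes of the 7 other silencing lists, in PANC-1 and AsPC-1; each point is a gene, filled where the adjusted p was under 0.05. Of the tested genes, 68 of 72 in PANC-1 and 66 of 70 in AsPC-1 lie within 0.4 of 0; the lowest point in each line is HNRNPA1, at -0.64 in PANC-1 and -0.78 in AsPC-1.

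Between control libraries 26 of 72 tested genes of the wider lists were higher and 33 lower in PANC-1. The total of 59 called is near the background of 76.4% of all tested genes and says nothing particular about the lists. The directions were less close to it: 40.3% of all tested genes were higher and 36.1% lower. The median log2 fold change was -0.11 in the lists and 0.06 over all tested genes. By list it ran from -0.44 (GW182 and deadenylase genes) to 0.42 (Argonaute cofactors). These medians are descriptions, with no test. Of the GW182 and deadenylase genes, 2 were higher and 12 lower in PANC-1 of 16; TNRC6C was 3.67-fold higher, and CNOT7, a CCR4-NOT deadenylase, stood at 30.5% of the AsPC-1 level. Of 7 genes of Argonaute loading, 2 were higher and 4 lower; the HSP90 genes diverged, HSP90AA1 at 62.1% and HSP90AB1 at 147% of the AsPC-1 level. Of 9 nuclear genes, 3 were higher and 5 lower, with the cap-binding subunit NCBP2 1.78-fold higher and KHSRP at 67.9%. Of 12 decapping genes, 4 were higher and 4 lower, with LSM1 at 35.2% and PATL1 at 47.5% of the AsPC-1 level.

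Of 11 tested Argonaute cofactors, 7 were higher and 3 lower in PANC-1 controls. WTIP had 33.0 ± 1.0 CPM in PANC-1 controls and 0.538 ± 0.12 CPM in AsPC-1 controls, where it had 6 and 7 counts, and ZSWIM8 was 2.45-fold higher. Of 7 tested tailing and decay genes, 2 were higher and 2 lower. TUT4 was 4.45-fold higher, and LIN28B was at least 59.6-fold higher in PANC-1 than a floor of 3 counts in the smaller AsPC-1 control library. Of 10 double-stranded RNA binding genes, 6 were higher and 3 lower, with the RNA editing enzyme gene ADARB1 3.50-fold and DDX58 3.18-fold higher.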

How the data were processed

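Poly(A) RNA was sequenced from 11 libraries of 2 cell lines. The authors deposited raw counts of reads per Ensembl gene, 1 table per library; the submitters' processing notes name HISAT2, HTSeq and the build hg19, and no versions. Strand setting and annotation of the counting: not given in the sources used here. All 58735 identifiers matched GENCODE 29 (GRCh38), which gave names, positions, lengths and 3' UTRs; no coordinate came from the tables, and 0 rows lacked a gene.

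Groups came from sample titles. Every pair of replicate libraries differed beyond sampling noise (chi-square), and none was merged. Each comparison was fitted over all genes in R 4.3.3 by the quasi-likelihood test of edgeR 4.0.16 (TMM factors, filterByExpr; two-sided, Benjamini-Hochberg, threshold 0.05): each line on its own, the controls of both lines, and 1 fit over 4 groups for the difference between lines. SE is the absolute log2 fold change divided by the square root of F. CPM values use TMM factors over all 11 libraries, so their ratios differ slightly from fitted folds.

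Members and lists were chosen with earlier results of these data known. In the 7 other lists the 2 called genes with the largest change per list and comparison were named. The choice of TNRC6B, TNRC6C, XPO5 and EIF2AK2 as named genes followed a look at their values. The alternatives comprised upper-quartile and RLE factors, no low-count filter, a filter at 5 CPM, DESeq2 1.42.0, a joint model of the 4 groups, a replicate block, and each library left out in turn. Python 3.11.15, numpy 2.4.6, scipy 1.17.1, pandas 2.3.3 and matplotlib 3.10.9 were used.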

Additional observations from a re-analysis of the deposited data

Results flagged for a closer look

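The siRNA response of several genes differed between the lines in the edgeR interaction test; the values are log2 differences, PANC-1 minus AsPC-1. Among the members, AGO1 (0.42), PRKRA (0.50) and DICER1 (-0.45) differed, with the larger change in AsPC-1 in each. MYEOV itself differed (0.59), being lowered further in AsPC-1. In the wider lists PTGES3 (-0.27), HSPA8 (-0.29), HSP90AB1 (-0.18), AJUBA (-0.53) and DDX58 (0.48) differed. The difference held in 17 of 17 alternative fits for MYEOV, PRKRA and AJUBA, in 15 for AGO1, DICER1 and PTGES3, in 13 for HSPA8, in 6 for DDX58 and in 2 for HSP90AB1, whose response was called in neither line. MYEOV stood at 54.4% of control in PANC-1 and 35.9% in AsPC-1, and the part of that gap in the other differences was not tested.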

How the results depend on the processing

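Of the members, AGO1, AGO2, PRKRA and DICER1 passed in all 12 alternative fits in AsPC-1, TNRC6A in 12 of 12 and TARBP2 in 11 of 12; in PANC-1 AGO1 passed in 13 of 13, PRKRA in 11, TARBP2 in 10, DICER1 in 5 and AGO2 in 4. With the replicate number as a block, PANC-1 gave 628 called genes, 2 members and 7 wider genes, against 1356, 4 and 14. The difference between lines gave 241, 1 and 1, against 727, 3 and 5. Among the genes named here, the PANC-1 calls of AGO2, PRKRA, PAN3, ZSWIM8, XRN1, AJUBA and LIN28B did not hold with the block. Same-numbered PANC-1 libraries did not deviate together (correlations 0.01, -0.39 and -0.09), nor did those of AsPC-1 (-0.03 and -0.01). Differently numbered PANC-1 pairs ran from -0.38 to 0.37. The highest were siRNA library 3 with control library 2 (0.37) and siRNA library 2 with control library 1 (0.36). Deviations cancel out within a group, so the 2 AsPC-1 controls give mirror-image values. Whether libraries with different numbers were handled together was not tested. Leaving out 1 library at a time gave 538 to 1712 called genes, 2 to 5 members and 3 to 16 wider genes in PANC-1, and 305 to 1056 genes and 1 to 5 wider genes for the difference between lines; the lowest were 538 without PANC-1 siRNA replicate 1 and 305 without AsPC-1 control replicate 1, and the cause was not tested. Some values changed sign. With 1 library left out, AGO4 in AsPC-1 ran from -0.02 to 0.27; in PANC-1 CNOT7 ran from -0.00 to 0.11, LSM1 from -0.06 to 0.03 and NCBP2 from -0.04 to 0.02; for the difference between lines HSP90AA1 ran from -0.05 to 0.04, STAU1 from -0.04 to 0.02, WTIP from -0.10 to 0.34 and XRN1 from -0.07 to 0.11; between controls HSPA8 ran from -0.06 to 0.03. With the block, XRN1 (-0.02) and HSP90AA1 (0.00) turned for the difference between lines and HSPA8 (0.02) between controls, where HSPA8 was also 0.00 in 1 fit over all groups and 0.06 with upper-quartile scaling, and PRKRA 0.02 with upper-quartile scaling. STAU1 turned for the difference between lines, to 0.00 with RLE scaling, 0.01 with upper-quartile scaling and 0.00 with DESeq2. Depth limits AGO4 in AsPC-1, at 131 to 197 counts.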
